A study of Mus musculus with 71 samples.

Results

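The regions described here are the narrow H3K27me3 peaks at gene promoters that were listed in both WT mESCs and H1-TKO mESCs. A WT peak was taken when it was narrower than 2000 bp, its centre lay within 1 kb of the transcription start of a protein-coding gene in mm9, and an H1-TKO peak overlapped it by at least 1 bp. By this rule 1560 of the 6957 WT peaks were members, and they lay at the starts of 1387 genes. H3K27me3 ChIP-seq was examined through 1 peak list per genotype, and RNA-seq of poly(A) RNA by 2 libraries per genotype. The mouse embryonic stem cells were of the R1 strain, and those for ChIP-seq were grown with LIF. The growth label of the RNA-seq libraries describes HeLa, a human cell line, although their cell type label gives mouse embryonic stem cells. Their tables list mouse accessions. In H1-TKO cells 3 linker histone genes (H1c, H1d, H1e) had been knocked out with CRISPR/Cas9 and single-cell clones had been picked, so a difference between the genotypes is also a difference between a clone and its parent line. The WT cells carried no such change.

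H3K27me3 is written by Polycomb repressive complex 2, whose catalytic subunit is EZH2 or EZH1 and which is activated by EED when it binds the mark it has made. In embryonic stem cells the mark covers CpG-rich promoters of developmental regulators, receptors and ion channels that are silent or barely transcribed until cells differentiate. Linker histone H1 binds the nucleosome at the DNA entry and exit site and compacts chromatin.

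Each peak carries a MACS score, the log10 of its p-value multiplied by −10, which rises with the number of reads as well as with enrichment. Both lists began at a score of 50 (50.01 for WT). The rule uses position, width and listing in both genotypes, and it therefore sets in part which scores and widths can occur. All scores and widths are given as descriptions without a test, because 1 list of each genotype was used. Replicate 2 of the H3K27me3 ChIP-seq of each genotype was not analysed here.

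The sequences at the centres of the 8 members with the highest WT score are shown because they differ in kind. They comprise predicted genes in repeat arrays, promoters of knocked-out linker histone genes, and promoters of a ligand and a transporter. Each is the central 200 bp of the NCBIM37 plus strand, with the CpG dinucleotides in capitals. The arrays lie at the start of chromosome 9 and on chromosome 2, and hold copies of satellite-type repeat to which reads cannot be assigned with certainty.
Gm10800 (chr2:98506842-98507041, coding exon): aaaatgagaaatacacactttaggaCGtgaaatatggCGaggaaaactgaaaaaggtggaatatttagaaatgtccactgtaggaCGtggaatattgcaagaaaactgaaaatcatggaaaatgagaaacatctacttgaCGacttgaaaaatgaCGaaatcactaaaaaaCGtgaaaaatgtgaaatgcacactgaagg
Gm10722 (chr9:3000139-3000338, upstream of the start): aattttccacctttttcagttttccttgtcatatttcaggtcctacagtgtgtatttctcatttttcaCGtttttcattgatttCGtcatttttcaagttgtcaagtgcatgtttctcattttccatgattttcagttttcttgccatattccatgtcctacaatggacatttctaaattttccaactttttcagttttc
Gm10801 (chr2:98502671-98502870, intron): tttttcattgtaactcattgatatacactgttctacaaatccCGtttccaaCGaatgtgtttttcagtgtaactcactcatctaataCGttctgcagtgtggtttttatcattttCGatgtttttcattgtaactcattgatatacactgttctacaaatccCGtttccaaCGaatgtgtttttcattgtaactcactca
Hist1h1d (chr13:23646434-23646633, upstream of the start): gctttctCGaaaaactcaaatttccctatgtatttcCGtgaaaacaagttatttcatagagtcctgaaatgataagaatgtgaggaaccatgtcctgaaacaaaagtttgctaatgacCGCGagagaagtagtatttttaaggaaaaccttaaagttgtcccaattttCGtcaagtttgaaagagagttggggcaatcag
Hist1h1c (chr13:23830409-23830608, upstream of the start): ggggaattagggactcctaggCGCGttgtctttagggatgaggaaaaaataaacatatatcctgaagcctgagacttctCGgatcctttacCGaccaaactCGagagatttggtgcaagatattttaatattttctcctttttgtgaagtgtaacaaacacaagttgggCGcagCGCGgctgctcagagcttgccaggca
Efnb2 (chr8:8660158-8660357, intron): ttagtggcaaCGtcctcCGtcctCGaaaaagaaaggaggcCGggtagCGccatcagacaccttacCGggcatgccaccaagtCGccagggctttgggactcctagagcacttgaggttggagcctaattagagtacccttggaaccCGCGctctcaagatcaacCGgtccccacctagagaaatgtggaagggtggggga
Slc5a5 (chr8:73416147-73416346, coding exon): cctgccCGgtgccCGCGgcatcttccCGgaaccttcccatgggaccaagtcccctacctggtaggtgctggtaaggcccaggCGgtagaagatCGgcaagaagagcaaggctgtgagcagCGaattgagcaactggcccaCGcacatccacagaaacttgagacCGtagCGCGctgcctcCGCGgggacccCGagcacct
Gm10720 (chr9:3015243-3015442, upstream of the start): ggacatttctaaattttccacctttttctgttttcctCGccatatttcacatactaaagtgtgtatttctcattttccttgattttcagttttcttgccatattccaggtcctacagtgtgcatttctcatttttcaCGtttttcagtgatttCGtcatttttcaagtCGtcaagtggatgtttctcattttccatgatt

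GC content was highest at the ligand and transporter genes. The window of Slc5a5, which encodes the sodium iodide symporter, held 14 CpGs at a GC content of 63.5%. That of Efnb2, which encodes the ligand ephrin-B2, held 10 at 57%. Upstream of Hist1h1c and Hist1h1d, the genes of linker histones H1c and H1d, there were 8 and 5 CpGs at 45.5% and 36.5% GC. The windows of Gm10800, Gm10722, Gm10801 and Gm10720 had 32% to 34.5% GC with 6, 2, 6 and 4 CpGs, so that of Hist1h1d lay near them. A median of 28.0% of the 12-base words of the Gm10800 window recurred in each of the other 19 array members, and up to 81.0% in 1 of them. In the 1540 members outside the arrays the median was 0% and the maximum 11.1%. The median over the other array members was 29.1% for the Gm10722 window, 45.5% for Gm10720 and 0% for Gm10801, of whose words up to 63.5% recurred in 1 of them.

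At Gm10800 the score went from 2478.1 in WT to 2485.3 in H1-TKO. The pairs of scores were 1471 and 1591.7 at Gm10722, 1238.2 and 1108.6 at Gm10801, and 502.81 and 558.09 at Gm10720. At Hist1h1d it was 944.82 and 967.66, and at Hist1h1c 845.7 and 893.09. The widths at both linker histone genes differed by 6 bp and 1 bp. The scores at Efnb2 and Slc5a5 were lower in H1-TKO, at 588.55 and 487.24 and at 528.97 and 364.66. The next members in order, Gm10719 and Gm10717, also lay in an array and went from 495.22 to 496.33 and from 493.68 to 443.94. Over all 20 array members, 18 on chromosome 9 and 2 on chromosome 2, the median score ratio was 0.967 and the range 0.604 to 1.55.

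Members had about the CpG content of protein-coding starts in general and more than the narrow promoter peaks that were lost. In the central 300 bp the median GC content was 59.7% for members and 55.3% for the 867 narrow promoter WT peaks without an H1-TKO peak. The observed to expected CpG ratio had a median of 0.585 in members, 0.474 in the lost peaks, 0.672 in the 191 broader promoter peaks kept and 0.328 in the 1675 narrow peaks kept away from promoters. A ratio of at least 0.6 was found in 47.8% of members (745), in 32.8% of lost peaks and in 49.7% of all protein-coding starts. Windows of the same length at all 45961 protein-coding starts had a median of 0.595. The same windows moved downstream by 376 bp, the median offset of members, had a median of 0.452, so the members lay above starts at their own median offset.

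Short motifs were counted on both strands in the same 300 bp windows. The CGCG word was present in 57.6% of members, 41.8% of lost peaks, 51.4% of all protein-coding starts and 39.4% of the moved starts. The GC box GGGCGG, a word bound by Sp1-type factors, was present in 30.0%, 25.3%, 45.3% and 27% in the same order. The words GAGAGA (21.1% of members, 23.9% of all starts) and TATAAA (4.23% of members, 9.16% of all starts) were no more frequent in members than at starts. CGCG and GGGCGG can share bases, and a match describes the letters only. Members with a CpG ratio of at least 0.6 had a median WT score of 124.9, against 102 for the 815 members under it. Their median H1-TKO to WT score ratios were close, at 0.965 and 0.981.

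Most members lay on the gene body side of the start. The centre was at or downstream of the nearest start in 1166 members (74.7%) and upstream in 394. The median distance was 501.5 bp, and 703 members spanned the start itself. Centres fell in introns in 729 members (46.7%), in coding exons in 337 (21.6%), in untranslated exons in 210 (13.5%) and outside transcripts in 284 (18.2%). Among lost narrow peaks the share outside transcripts was 26.0% and that in coding exons 15.8%. A single member was found at 1178 genes and more than 1 at 209, with at most 6 at 1 gene. Among all members 56 lay at the starts of more than 1 gene.

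The 1560 members were 64.3% of the 2427 narrow promoter WT peaks (95% Clopper-Pearson interval 62.3 to 66.2, which covers counting error only). The share listed again in H1-TKO rose with the WT score. Over 4 groups of equal size by WT score it was 35.6%, 52.7%, 74.1% and 94.7%. Lost peaks had a median WT score of 66.1 and a median width of 426 bp, against 111.6 and 803 bp for members. At the limit of width, the members of Mafa (1992 bp), Wnt3 (1999 bp) and Ccnd2 (1999 bp) lay just inside and the peaks of Fat4 (2008 bp), Lor (2019 bp) and Jakmip3 (2020 bp) just outside. At the limit of distance, the members of Rab20, Osbpl6 and H60b had centres 998 bp from a start, and the peaks of Hs3st3a1, Golim4 and Rnf130 lay 1002, 1005 and 1011 bp away.

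Scores of members were spread around equality. The median WT score was 111.6 (quartiles 76.6 and 170, range 50.18 to 2478.11) and the median of the top overlapping H1-TKO score was 111.3. The median H1-TKO to WT ratio was 0.974, with quartiles of 0.71 and 1.33 and a range of 0.216 to 6.12. The score was higher in H1-TKO at 750 members (48.1%) and lower at 810. It was at or under 0.5 times the WT score at 124 members (7.95%) and at least 2 times at 148 (9.49%).

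**Figure D1:**
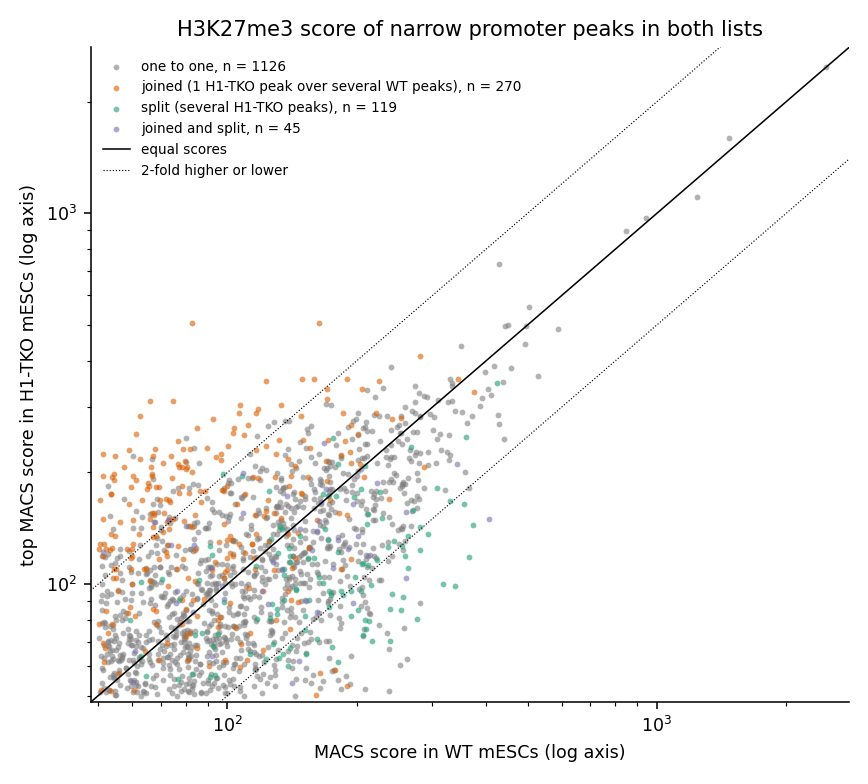
Each point is 1 of the 1560 narrow promoter members, with its MACS score in WT mESCs on the x axis and the top score of the overlapping H1-TKO peaks on the y axis, both on log axes and without units. The solid line marks equal scores and the dotted lines 2-fold differences. Points are coloured by how the peaks pair, and joined members lie mostly above the solid line and split members mostly below it.

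The ratio depended on which list chose the regions. When the rule was applied to narrow promoter peaks of the H1-TKO list instead, 1656 regions were found, their median WT score was 128.2, their median H1-TKO score 100.5 and their median ratio 0.842, with 37.6% higher in H1-TKO. With members divided into 4 equal groups by WT score, the median ratio went from 1.41 in the lowest group through 0.975 and 0.865 to 0.739 in the highest. Divided instead by the geometric mean of both scores, the groups had medians of 0.972, 1.02, 0.937 and 0.978. The ratio over all 3851 WT peaks listed again was 0.958. The broader promoter peaks had 0.825, with 28.3% higher in H1-TKO, and narrow peaks away from promoters had 0.993.

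Widths were also close overall and variable at single members. The median width was 803 bp in WT, and the overlapping H1-TKO peaks had a median summed width of 834 bp. The median change was 16.5 bp, with quartiles of −197 and 276.5 bp. H1-TKO was wider at 821 members and narrower at 739, and at 72 members (4.62%) the summed H1-TKO width reached 2000 bp or more. The shared part was a median of 82.3% of the WT peak. At 611 members it was at least 90% and at 263 it was less than 50%, so these are kept by a part of their length only. Width followed the WT width in the same way as the score, from a median change of 106 bp in the lowest of 4 groups by WT width through 37 and −15 to −161 bp in the highest. The broader promoter peaks had a median change of −287 bp.

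How the peaks paired went with both values. At 1126 members (72.2%) 1 WT peak met 1 H1-TKO peak, and there the median ratio was 0.935 and the median change in width −42 bp. At 270 members an H1-TKO peak covered more than 1 WT peak, with 1.65 and 401 bp. At 119 members the WT peak was met by more than 1 H1-TKO peak, with 0.615 and −3 bp, and at 45 both occurred. In a joined pair a single H1-TKO score is set against each WT piece, and in a split pair the top of several scores against the whole. Another WT peak lay within 1 kb of 811 members, which had a median ratio of 1.06, whereas the 689 members with none within 5 kb had 0.880.

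**Figure D2:**
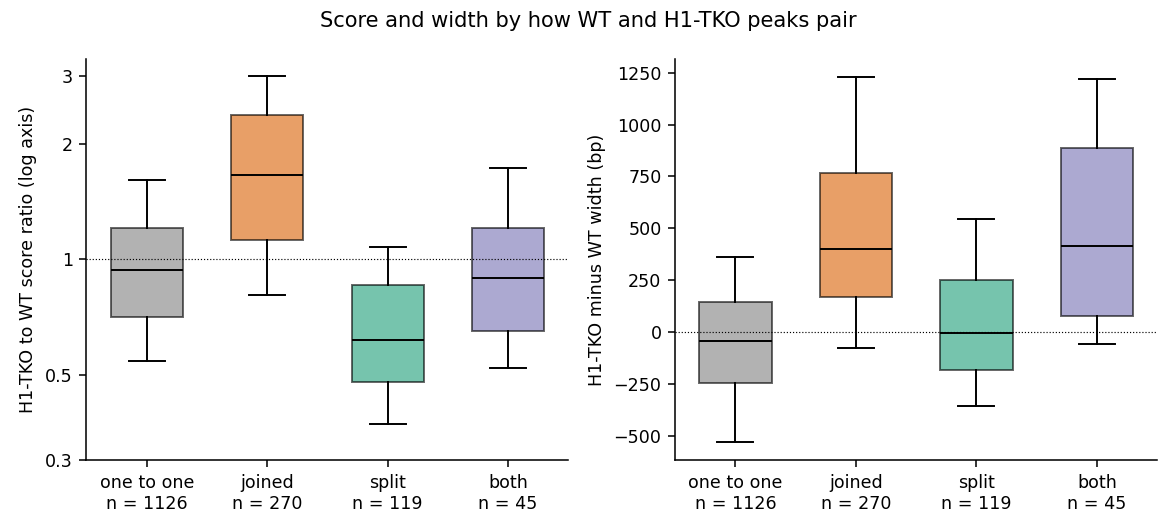
Box plots of the H1-TKO to WT score ratio (left, log axis) and of the H1-TKO minus WT width in bp (right) for members paired one to one, joined, split or both. Boxes give the quartiles with the median line and whiskers the 10th and 90th percentiles. The median ratio was 1.65 for joined and 0.615 for split members.

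The members with the largest gains of score were mainly joined peaks. At Lonrf2 the score went from 82.77 to 506.39, a ratio of 6.12, where an H1-TKO peak of 1697 bp covered a pair of WT peaks that lay 3 bp apart. Mfsd6, which encodes a membrane transporter of the major facilitator superfamily, had members with ratios of 4.73 and 4.17 under a single H1-TKO peak. The ratio was 4.54 at Pogk, 4.37 at 2010300C02Rik, 4.14 at the start shared by Ina and Nt5c2, 4.03 at Cnnm1 and 3.90 at Dscaml1, which encodes a neuronal adhesion molecule. At Dock10 it was 3.82, but the H1-TKO peak overlapped only 1.83% of the WT peak. Obsl1, which encodes a cytoskeletal adaptor, was the only one of these 10 paired one to one. There the score went from 60.41 to 221.38 and the width from 634 to 2208 bp, with the next WT peak 53133 bp away.

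The members with the largest losses were mostly paired one to one and were covered in part. Cmtm1 went from 238.08 to 51.46, a ratio of 0.216 and just above the lowest score listed. At Adm, which encodes the vasodilator peptide adrenomedullin, the score went from 209.32 to 52.18 and the width from 1907 to 534 bp. At Sfrp1, whose product is a secreted Wnt antagonist, it went from 237.62 to 66.85. At Igfbp4, whose product binds insulin-like growth factors, it went from 339.39 to 98.87. The other 6 were D930020B18Rik (0.240), Rin3 (0.241), Sncaip (0.278), Hhipl1 (0.281), Zcwpw1 (0.283) and Sidt1 (0.291).

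The widest gains were also at joined peaks, that of Kcnc4 both joined and split. They were 2861 bp at the start shared by St8sia5 and Gm7276, 2670 and 2448 bp at Cnih3, whose product is an auxiliary subunit of AMPA receptors, and 2455 and 2424 bp at the axonal kinesin gene Kif1a. At the potassium channel gene Kcnc4 the gain was 2034 bp. The largest losses were −1590 bp at the neuropeptide Y receptor gene Npy5r, −1385 bp at the cyclin D2 gene Ccnd2, −1373 bp at Adm, −1268 bp at Rin3, −1241 bp at the potassium channel gene Kcna2 and −1217 bp at Rap1gap2.

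All 3 knocked-out genes had members. Besides the 2 members printed above, Hist1h1d had a second at 272.92 in WT and 310.15 in H1-TKO, and Hist1h1c a second at 273.62 and 341.82. At Hist1h1e it went from 429.43 to 727.93, a ratio of 1.70 at nearly the same width (962 and 995 bp). All 5 of these members were higher in H1-TKO. The histone gene cluster holds near-identical copies, so how reads were shared between them is uncertain. The member of Rtbdn, a gene the study examined, went from 51.53 to 78.85, and that of Ccdc85c from 65.97 to 149.52. The WT score at Rtbdn lay near the lowest listed, 50.01. The study reports reduced H3K27me3 in H1-TKO at individual gene regions and shows tracks of Rtbdn, and a peak score is a different measure from that signal.

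Chromosome 1 stood above the others. Of its 171 narrow promoter WT peaks 75.4% were members, and their median ratio was 1.18, with 81 of 129 higher in H1-TKO and a median width change of 288 bp. Among its 79 members paired one to one the median ratio was 1.06. Of the 10 largest score ratios 7 were on chromosome 1. Chromosome 19 followed with 1.12. Chromosome 18 had 0.830, with 14 of 50 higher, and the X chromosome 0.685, with 1 of 9 higher and only 37.5% of its 24 narrow promoter peaks kept. Without chromosome 1 the median over members was 0.958.

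Among the lists examined, those of signalling genes and of ion channels and receptors had the highest shares of genes with a member. Lists were defined by gene symbol, and each share is set beside the 6.2% of all 22367 protein-coding genes that had a member. Of 280 genes of ion channels and neurotransmitter receptors 78 had one (27.9%), and of 234 genes of signalling ligands and receptors 65 (27.8%). The share was 15% for bHLH factors (9 of 60), 13.7% for adhesion and matrix genes (40 of 293), 12.7% for solute carriers (45 of 355), 12.1% for forkhead, Sox and related factors (19 of 157) and 10.3% for homeobox factors (19 of 184). Of 31 Polycomb genes 1 had a member, Bmi1, a subunit of Polycomb repressive complex 1, and of 80 genes of cytosolic ribosomal proteins 0 had one. At lost narrow peaks the share was 12.4% for signalling, 9.29% for channels and receptors, 13.0% for adhesion and matrix genes and 1.67% for bHLH factors, beside 3.72% of all coding genes. At the broader kept peaks it was 5.98%, 3.93%, 2.39% and 8.33% in the same order, beside 0.872%.

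In each list with more than 1 member the median score ratio lay below 1. The median ratio was 0.858 for adhesion and matrix genes, 0.877 for signalling genes, 0.888 for solute carriers, 0.914 for ion channels and receptors, 0.936 for bHLH factors, 0.941 for homeobox factors and 0.987 for forkhead, Sox and related factors, against 0.974 for all members.

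Among signalling members, the Wnt receptor gene Fzd9 went from 440.52 to 245.42 and the Wnt ligand gene Wnt7a from 276.79 to 160.22. Among channels and receptors, the voltage-gated potassium channel gene Kcnh1 went from 397.51 to 373.68, the two-pore potassium channel gene Kcnk4 from 355.81 to 163.95, the beta-1 adrenergic receptor gene Adrb1 from 330.17 to 222.32, and the calcium channel subunit gene Cacnb3 from 313.1 to 254.08. Of these, Kcnh1 lay nearest to its WT score. The highest members at solute carriers after Slc5a5 were those of Slc25a31, an ADP/ATP carrier gene, from 360.43 to 271.05, of the organic cation transporter gene Slc22a3 from 330.49 to 167.6, and of Slc47a2 from 281.2 to 142.35. At adhesion and matrix genes they were those of the neurexin gene Nrxn2 from 276.11 to 198.96, the matrix metalloproteinase gene Mmp17 from 274.88 to 227.29, Lrfn5 from 256.41 to 142.96, and the protease gene Adamts15 from 210.71 to 258.86. Adamts15 alone among these was higher in H1-TKO. Members named from the lists, here and below, were chosen for the highest WT scores. All members with a WT score of at least 100 had a median ratio of 0.814, with 33.4% higher in H1-TKO.

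Over all members of a list the median WT score was 118.9 for bHLH factors, 111.64 for forkhead, Sox and related factors and 103.33 for homeobox factors. Homeobox members went from 220.46 to 162.94 at Nkx2-4, from 201.65 to 201.49 at Prrx2, from 201.32 to 215.75 at Pou4f2 and from 157.76 to 139.09 at Meis2. The mesoderm bHLH genes Mesp2 and Twist2 went from 215.55 to 178.31 and from 192.11 to 149.99, and the muscle determination gene Myod1 from 132.5 to 142.73. Sox30 went from 276.62 to 257.42, Glis3 from 263.43 to 192.74, Foxj1, a regulator of motile cilia, from 227.71 to 102.46, and Foxo6 from 185.48 to 198.71.

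For RNA, the labels of the samples and the names inside the tables give opposite genotypes for the 4 libraries. Libraries are called here by the table names, as WT-named and H1-TKO-named, and the sample labels would reverse every direction. The counts of the knocked-out genes were low and varied between replicates. The normalized count of Hist1h1c was 11.6 and 56.7 in the WT-named and 18.7 and 7.37 in the H1-TKO-named libraries, that of Hist1h1d 3.88 and 41.4 against 1.10 and 0, and that of Hist1h1e 5.43 and 19.6 against 0 and 2.11. WT-named replicate 2 was the highest library for each of the 3 genes, and the groups overlapped for Hist1h1c. The adjusted p of limma was 0.105 for Hist1h1d and 0.390 for Hist1h1c, and Hist1h1e was too low to be tested. The mRNA of these replication-dependent histone genes largely lacks poly(A) tails, so poly(A) libraries measure them poorly. For Hist1h1d the adjusted p was 0.0290 in DESeq2, 0.0681 in edgeR and 0.0310 in limma with the replicate block. The linker histone genes H1f5 and H1f1, which were not knocked out, were also lower, and WT-named replicate 2 was again the highest library. H1f5 had 6.21 and 44.7 against 0 and 2.11 counts and H1f1 8.53 and 34.9 against 4.41 and 13.7. Their log2 differences were −3.36 and −1.05 (limma adjusted p = 0.0834 and 0.417). The replication-independent linker histone genes H1f0 and H1f10 rose by 1.98 and 1.63 on the log2 scale (limma adjusted p = 0.0014 and 0.0044). H1f0 had 571 and 464 against 1944 and 2118 counts, and H1f10 had 140 and 134 against 453 and 401.

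The libraries held 6951619 to 10538507 reads on 34010 accessions. Of 10 pluripotency markers 8 had a mean count of at least 10, Nanog was listed at 0 and Esrrb was near 0. The summed counts of the 10 were 27145 and 39490 in the WT-named and 46455 and 47130 in the H1-TKO-named libraries. The markers did not move together. Sox2 (1.04), Klf4 (1.45) and Dppa5a (0.90) rose and Tdgf1 (−0.50) fell (limma adjusted p = 0.0077, 0.0371, 0.0073 and 0.0336). Pou5f1 (−0.42), Dppa4 (−0.79), Zfp42 (0.22) and Utf1 (0.43) were not called. Neural markers, 3 of 5 with a mean of at least 10, summed to 3851 and 2297 against 813 and 879, mainly Nes and Tubb3. Sums of primitive endoderm and trophoblast markers were at most 88.5 in any library. Of 8 fibroblast markers 4 had a mean of at least 10, Postn and Dcn were listed at 0, and the sums were 571 and 479 against 512 and 576. Within this list Acta2, with 217 and 180 against 2.2 and 0 counts, and Col1a1 (log2 fold change −1.97) fell, and Thy1 (2.02) rose (limma adjusted p = 0.0028, 0.0112 and 0.0029). The part of these differences in the results below was not tested. The study describes the RNA-seq replicates as biological replicates.

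Genes at members had low RNA levels. Of the 1387 genes 1323 had an accession, and they shared 1321 distinct accessions. Per kb of exon, the median level was 2.36 normalized counts for member genes, 2.46 for genes at lost narrow peaks, 1.37 for genes at the broader peaks and 4.24 for genes with no WT peak closer than 2 kb to a start. A mean under 1 was found for 23.7% of member genes and for 29.8% of all coding genes. It was found for 59.1% of the 384 member genes whose symbol had more than 1 accession and for 9.18% of the others, so levels near 0 at genes with several accessions are uncertain.

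A few members lay within 1 kb of the starts of strongly transcribed genes. The highest mean levels per kb were those of Tubb6, a tubulin gene (954), Hdac2, a histone deacetylase gene (547), Plk2, a kinase gene (436), Pgk1, a glycolytic gene (371), Egr1, an immediate early gene (310) and Rrs1, a ribosome assembly gene (301). The WT scores of their highest members were 217.93, 280.77, 110.91, 75.14, 60.51 and 148.52 in the same order, on both sides of the members' median. The centres of these members lay −992, −944, 715, −108, 615 and 256 bp from the start, with negative values upstream. The peaks at Tubb6, Hdac2 and Pgk1 ended before the start. Peaks and reads come from populations of cells, so which cells carried the mark cannot be told apart.

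A mean of at least 10 left 624 member genes to be tested, and 697 were under it. In limma on log2(normalized count + 1), with adjustment over all 11113 accessions, 74 were higher in the H1-TKO-named libraries and 65 lower at an adjusted p under 0.05. That is 11.9% and 10.4% of those tested, beside 9.84% higher and 10.7% lower over all accessions. The groups did not overlap at any of the 139. A call from 2 libraries per genotype largely brings this about, so it adds no support, and it was not counted over all accessions. The median log2 fold change of member genes was −0.05 and that of all accessions −0.03. Genes at lost narrow peaks had 39 higher and 35 lower of 392, and genes at the broader peaks 3 higher and 12 lower of 72.

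The number of calls rested on the libraries. Calls of the fits below were counted for member genes only, without the share over all accessions, so they show nothing particular to members. The median absolute log2 difference between replicates over tested member genes was 0.68 for the WT-named and 0.32 for the H1-TKO-named pair. Without H1-TKO-named replicate 1 the counts were 15 higher and 30 lower, and without H1-TKO-named replicate 2 they were 18 and 36. Without WT-named replicate 1 they were 170 and 108, and without WT-named replicate 2 they were 114 and 168. A set of 35 genes was called in every one of these 4 fits, in which the lone library is assumed to vary like the others. In limma without a trend of the variance on the level, 7 were higher and 3 lower.

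Calls in both directions occurred in each class of score change. Of 140 tested genes whose highest member had a score ratio of 0.67 or less, 16 were higher (11.4%) and 12 lower (8.57%), beside 9.84% and 10.7% of all accessions. Of 366 genes with ratios between 0.67 and 1.5, 39 were higher (10.7%) and 40 lower (10.9%). Of 118 genes with a ratio of 1.5 or more, 19 were higher (16.1%) and 13 lower (11.02%), and the median log2 fold changes of the 3 classes were 0.03, −0.05 and −0.12. No test was run between these classes.

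**Figure D3:**
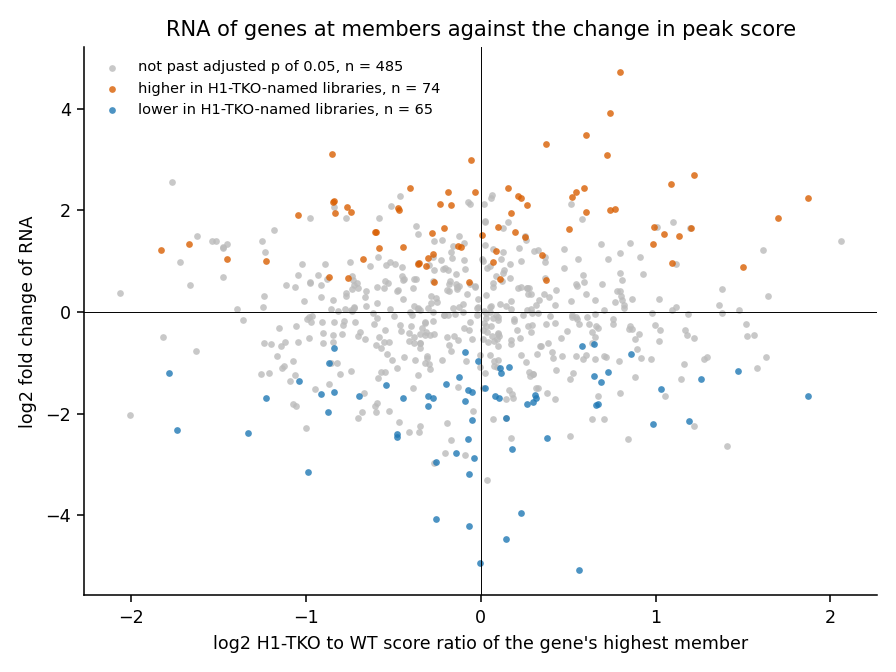
Each point is 1 of the 624 tested genes at members, with the log2 H1-TKO to WT score ratio of its highest member on the x axis and the log2 fold change of its RNA, H1-TKO-named against WT-named, on the y axis. Genes called higher (orange, 74) and lower (blue, 65) by limma occur on both sides of the line of equal scores.

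Chromosome 1 also stood apart in RNA, for all genes. Of 55 tested member genes on it 18 were higher (32.7%) and 8 lower, and of all 605 tested accessions on it 183 were higher (30.2%) and 25 lower. The median log2 fold change was 0.60 for members and 0.50 for all accessions of the chromosome. On chromosome 8 members had 4 higher (10.5%) and 9 lower (23.7%) of 38, beside 4.28% and 18.8% of all its accessions. On chromosome 11 they had 8 higher (12.5%) and 9 lower (14.1%) of 64, beside 5.32% and 21.4%. Outside chromosomes 1, 8, 11 and Y there were 44 higher and 39 lower of 467 member genes (9.42% and 8.35%), and the background there was 9.28% and 9.53%.

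Of the 12 largest rises 2 were called in every fit that left out 1 library. The normalized count of 1190002H23Rik, also called Rgcc, a cell cycle regulator, was 6.98 and 9.82 in the WT-named and 242 and 244 in the H1-TKO-named libraries, a log2 fold change of 4.72 (SE 0.38, limma adjusted p = 0.0014). That of Serpine2, a secreted protease inhibitor, was 272.3 and 271.6 against 1534 and 1409, a log2 fold change of 2.43 (SE 0.15, limma adjusted p = 0.0006). In both genes the groups lay far apart. The member of 1190002H23Rik went from 111.42 to 193.3 in score and that of Serpine2 from 137 to 103.39.

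The other 10 rises follow as log2 fold changes. They were 3.92 at Pou4f3, a hair cell transcription factor gene, with 1.55 and 1.09 against 36.4 and 31.6 counts, 3.48 at 5330417C22Rik, and 3.30 at the R-spondin gene Rspo4, with 4.65 and 3.27 against 46.3 and 48.4 counts. They were 3.11 at the lipid transporter gene Abcb4, 3.08 at the phosphatase gene Dusp15, 2.98 at the fatty acid hydroxylase gene Fa2h, 2.69 at 2010300C02Rik, 2.52 at the kinase gene Dclk3, 2.45 at the kinesin gene Kif19a and 2.44 at the axon guidance gene Slit1. In limma the adjusted p of these 10 ranged from 0.0089 to 0.0435. All 10 lost the call without H1-TKO-named replicate 1, and all of these but Fa2h and 5330417C22Rik also without H1-TKO-named replicate 2. Their highest adjusted p in limma over these fits was 0.0873 for Pou4f3 and 0.308 for Kif19a, and lay between 0.0580 and 0.257 for the remaining ones.

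Among the called genes at members the largest fall in limma was that of Myl9. This myosin regulatory light chain gene had 254 and 141 counts in the WT-named and 14.3 and 1.05 in the H1-TKO-named libraries, a log2 fold change of −5.08 (SE 0.89, limma adjusted p = 0.0111). Psmb8, an immunoproteasome subunit gene, had 80.7 and 22.9 against 0 and 1.05, a log2 fold change of −4.95. In edgeR and DESeq2 the order differed, with Psmb8 at −6.29 and −6.58, Tbc1d9 at −4.98 and −5.14 and Myl9 at −4.67 and −4.67. For Fbn1, which encodes the microfibril protein fibrillin-1, the counts were 238 and 107 against 18.7 and 15.8, a log2 fold change of −3.14 (SE 0.46, limma adjusted p = 0.0068). The H1-TKO-named libraries lay below both WT-named libraries for each. The fibroblast markers Acta2 and Col1a1 fell in the same libraries, whereas Thy1 of that list rose (2.02). The sums of the list were 571 and 479 against 512 and 576. The part of fibroblast markers in these values was not tested.

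The others were −4.47 at Tbc1d9, −4.22 at the secreted kinase gene Pkdcc, −4.08 at the collagen receptor gene Mrc2, −3.96 at the imprinted adaptor gene Grb10, −3.19 at the survival gene Bcl2, −2.95 at the Wnt ligand gene Wnt3, −2.87 at Tmem59l, −2.78 at Nlrp6 and −2.70 at the lysyl oxidase gene Loxl1. Of the 12 falls 9 were called in every fit that left out 1 library. The exceptions in limma were Wnt3, with an adjusted p of 0.0694 without H1-TKO-named replicate 1, Nlrp6, which reached 0.0902 without 1 of the H1-TKO-named libraries, and Bcl2, which reached 0.115 and was also lost without WT-named replicate 1. Fold changes are on the log2(normalized count + 1) scale and understate those of low genes.

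**Figure D4:**
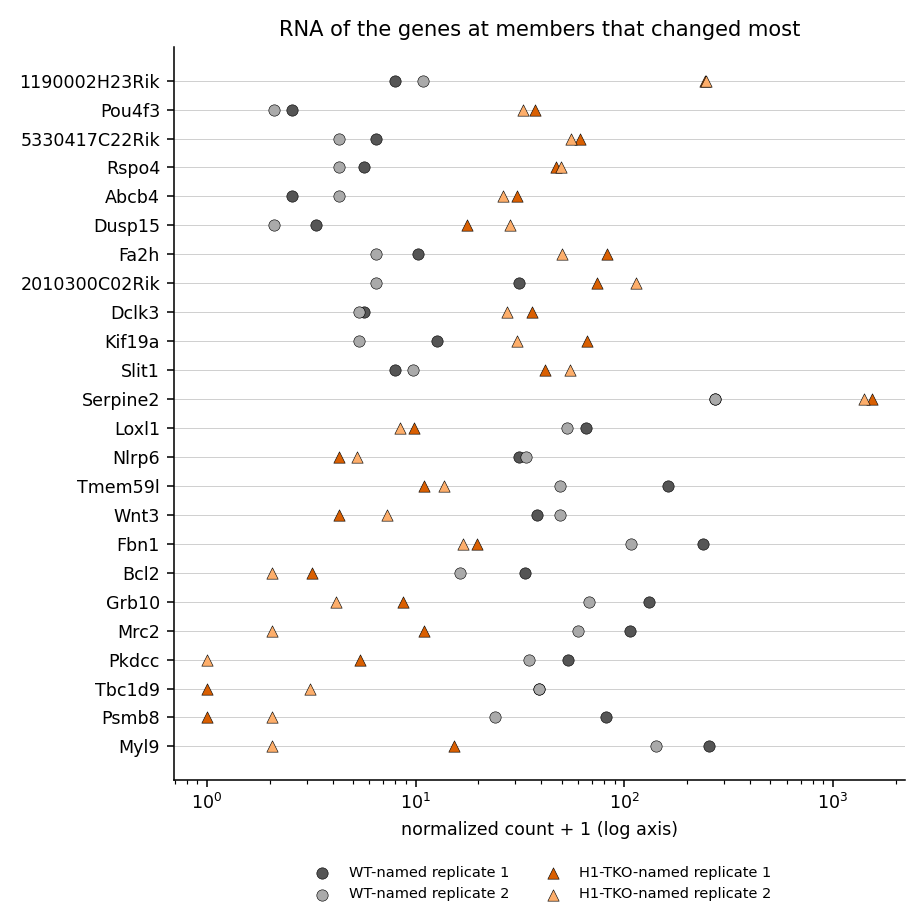
Normalized count plus 1 (log axis) in each of the 4 RNA-seq libraries for the 12 member genes with the largest called rise and the 12 with the largest called fall. Circles are WT-named and triangles H1-TKO-named libraries, 1 symbol per library without error bars. Genes were taken only where the groups did not overlap. Myl9 has 254 and 141 against 14.3 and 1.05 counts.

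Of the genes whose peak score changed most, some rose, some fell, some were tested without a call and some were too low to be tested. Obsl1, with a ratio of 3.66, had 552 and 388 counts in the WT-named and 156 and 139 in the H1-TKO-named libraries, and fell by 1.64 on the log2 scale (limma adjusted p = 0.0064). Sfrp1, with a ratio of 0.281, had 411 and 256 against 751 and 754 counts and rose by 1.21 (limma adjusted p = 0.0153, and up to 0.0585 without 1 of the H1-TKO-named libraries). Igfbp4, with a ratio of 0.291, had 191 and 122 against 69.4 and 63.2 counts and fell by 1.19 (limma adjusted p = 0.0387, and up to 0.207 without 1 of the H1-TKO-named libraries). The intermediate filament gene Ina, at a start with a ratio of 4.14, had 644 and 650 against 192 and 143 counts and fell by 1.96 (limma adjusted p = 0.0031). Its other and higher member, paired one to one, went from 97.73 to 53.3 in score, a ratio of 0.545. 2010300C02Rik, with 4.37, rose (limma adjusted p = 0.0420, and up to 0.144 without 1 of the H1-TKO-named libraries, and 0.0549 in edgeR). Dscaml1, with 3.90, rose (limma adjusted p = 0.0398, and 0.271 and 0.274 without H1-TKO-named replicate 1 or 2, and 0.0518 in DESeq2). The highest members of these genes had ratios of 2.33 and 1.98. Lonrf2, Mfsd6, Cnnm1, Adm, Zcwpw1 and D930020B18Rik were tested and not called, and the remaining genes were under the filter.

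Of 31 tested genes of signalling ligands and receptors, 5 were higher (16.1%) and 9 lower (29.0%), beside 9.84% and 10.7% over all accessions (median log2 fold change −0.66, against −0.03 over all accessions). Of the Wnt pathway, the ligand gene Wnt6 (2.37), the activator Rspo4 and the antagonist Sfrp1 rose, and the receptor gene Fzd2 (−2.09), the activator Rspo1 (−1.84) and the ligand gene Wnt3 fell. Of TGF-beta family ligands Bmp7 rose (2.13) and Tgfb2 fell (−2.45). Of guidance genes Slit1 rose and Sema6a (−2.21), Efnb2 (−1.70) and the receptor gene Plxna1 (−0.66) fell. Igfbp4 also fell, and so did Igf2bp2 (−0.71), which the list takes in by its name but which encodes an RNA-binding protein.

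Efnb2 had 317 and 216 counts in the WT-named and 70.5 and 90.6 in the H1-TKO-named libraries (limma adjusted p = 0.0105), and Plxna1 3097 and 2562 against 1795 and 1764 (limma adjusted p = 0.0177, and up to 0.179 without 1 of the H1-TKO-named libraries). The score of Efnb2, the member printed above, was lower in H1-TKO, and that of Plxna1 went from 114.47 to 171.24.

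The other lists had at most 20 tested genes each, and their counts stand beside a background of 9.84% higher and 10.7% lower. Of 7 homeobox genes tested Pou4f3 rose and Gbx2, a gene of the midbrain-hindbrain boundary, fell (−1.58). Of 14 forkhead, Sox and related genes Foxo6 rose (1.67) and Sall3 fell (−2.50). Of 2 bHLH genes Ascl2 rose (1.26). Of 16 channel and receptor genes Kcnn3, a calcium-activated potassium channel gene, rose (2.01). Of 18 solute carrier genes the glutamate transporter gene Slc1a1 (2.00) and the potassium chloride cotransporter gene Slc12a7 (0.59) rose. Of 20 adhesion and matrix genes Col23a1 (2.27) and Mmp17 (1.15) rose and Pcdh1 (−1.66) and Fbn1 fell. Of the 26 called list genes 6 were called in every fit that left out 1 library, namely Bmp7, Efnb2, Fzd2, Sema6a, Slc1a1 and Fbn1. Without H1-TKO-named replicate 1 the call was lost at 19, without H1-TKO-named replicate 2 at 16 and without WT-named replicate 1 at Rspo1 and Tgfb2.

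The only Polycomb member gene, Bmi1, had 77.6 and 67.6 counts in the WT-named and 20.9 and 46.3 in the H1-TKO-named libraries (log2 difference −1.19, limma adjusted p = 0.108). With 1 library left out its log2 difference ranged from −1.74 to −0.633.

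Of the genes at the 8 highest members, Efnb2 was the one called. Slc5a5 had 218 and 151 counts against 100 and 104 (log2 difference −0.82, limma adjusted p = 0.0745). Of the strongly transcribed genes Plk2 rose, with 732 and 514 against 1923 and 1721 counts (log2 fold change 1.57, limma adjusted p = 0.0043), while its member went from 110.91 to 72.92 in score. Tubb6 (−0.61), Hdac2 (−0.14), Pgk1 (0.52), Egr1 (0.02) and Rrs1 (0.08) were not called.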

How the data were processed

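H3K27me3 ChIP-seq was examined in WT and H1-TKO mESCs, 1 peak list each, and replicate 2 of each was not analysed here. The authors aligned reads to mm9 with bowtie2, removed duplicates and low-quality reads with samtools and called peaks with MACS. The deposited score is the log10 of the peak p-value multiplied by −10, and the lists hold no reads or spike-in. Starts came from protein-coding transcripts of GENCODE M1 on NCBIM37, which is the mm9 build. Peaks on unplaced or mitochondrial sequence (168 WT, 155 H1-TKO) could not be members. Where several H1-TKO peaks overlapped a member, the top score and the summed width were used.

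For RNA-seq the authors counted reads with Subread and featureCounts and divided them by DESeq2 size factors, so the deposited signal is a normalized count per accession. Whole reads could be recovered from 100% of the values, at a relative tolerance of 1e-06. Recovered reads numbered 10538507 and 8292007 in the WT-named and 6951619 and 7346122 in the H1-TKO-named libraries. RefSeq (GRCm38.p6) gave gene names for 33646 accessions and no coordinates. limma 3.58.1 (R 4.3.3) was run with a trend on log2(normalized count + 1) for accessions with a mean of at least 10, with Benjamini-Hochberg adjustment. Recovered reads were also tested by edgeR 4.0.16 (quasi-likelihood) and DESeq2 1.42.0. Whether counting used strand is not given in the sources used here, so overlapping and near-identical genes are uncertain. A simulation of 10933 accessions gave 200 of them a log2 fold of 2, at a single dispersion of 0.05. There limma found 191 of these (95.5%), and 7 other calls were false. The real pairs of replicates were not alike. Over tested member genes their median absolute log2 difference was 0.68 for the WT-named and 0.32 for the H1-TKO-named pair. A single dispersion does not reproduce this, so the simulated rates cannot be taken as those of the calls reported here.

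Sequence windows came from NCBIM37. Python 3.11.15, pandas 2.3.3, numpy 2.4.6, scipy 1.17.1 and pysam 0.24.0 were used. The members, gene lists, named genes and alternatives were chosen with earlier results of these data known. The largest RNA changes were taken from called genes whose groups did not overlap. Genes named are the 10 members with the highest WT score and with the largest and smallest score ratio, the 6 largest gains and losses of width, the 4 highest member genes of each list, the 3 peaks on each side of a limit, the knocked-out genes, the genes of the study, the 12 largest called RNA changes in each direction, the 6 highest levels and, added after their values were seen, the called genes of each list.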

Additional observations from a re-analysis of the deposited data

How the results depend on the processing

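The number of members was 969 with a width limit of 1000 bp, 778 with promoters of 500 bp, 885 with a WT score of at least 100 and 632 with a score of at least 100 in both lists. Under the other settings it stayed within 1.5 times 1560, up to 2160. The median score ratio, the percent higher in H1-TKO and the median change in width moved to 1.07, 57.0% and 74 bp with a width limit of 1000 bp, and to 1.02, 51.7% and 43 bp with 1500 bp. With at least 50% of the WT peak covered they were 1.02, 51.5% and 51 bp, and with 50% of both peaks 0.940, 44.4% and −17 bp. With a WT score of at least 100 they were 0.814, 33.4% and −45 bp. With a score of at least 100 in both lists they stayed near the main values, at 0.969, 46.8% and 6 bp. Among members paired one to one they were 0.935, 43.9% and −42 bp, with peaks closer than 500 bp merged 0.930, 44.4% and −33 bp, and with the lists exchanged 0.842, 37.6% and −165 bp. Relative to the median over all WT peaks kept, the ratio was 1.02 and the percent 51.3%. With the H1-TKO peak of longest overlap the change in width was −16.5 bp. In an alternative chosen after seeing the data, members with a WT score of at least the median had 0.808, 31.8% and −50.5 bp. Settings of width, overlap and WT score put the median ratio on either side of 1, and the cause was not tested.

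The counts of member genes higher and lower in RNA were 49 and 36 with a mean of at least 1, 38 and 41 with a mean of at least 100, 7 and 3 in limma without a trend, and 42 and 38 with accessions of chromosomes 1, 8, 11 and Y left out. Leaving out 1 library gave 15 to 170 higher, 30 to 168 lower and a median log2 fold change of −0.214 to 0.0792. Shares over all accessions were not counted under these settings. Of the 139 calls edgeR shared 129 and DESeq2 131. Replicate numbers did not pair the libraries (correlation of deviations 0.01 over 11113 accessions), and with the replicate number as a block 108 were higher and 122 lower, including all 139. The sign of the RNA difference reversed for 9 genes that were not called when 1 library was left out. Their log2 fold changes ranged from −0.536 to 1.29 for D930020B18Rik and from −0.0614 to 0.105 for Egr1, both with the lower value without H1-TKO-named replicate 1. D930020B18Rik also had −0.228 without WT-named replicate 1. Without WT-named replicate 1 or 2 they ranged from −0.669 to 0.0347 for Foxj1, −0.114 to 0.264 for Rrs1, −1.07 to 0.573 for Wnt7a, −2.17 to 0.0244 for Hist1h1c, −0.394 to 0.0675 for Pou4f2, −1.26 to 0.442 for Slc25a31 and −0.671 to 0.459 for Slc47a2. Of 33 named genes called, 18 lost the call without H1-TKO-named replicate 1, 15 without H1-TKO-named replicate 2 and 1 without WT-named replicate 1. Replicate 2 of the H3K27me3 ChIP-seq was not analysed here, so scores carry no replicate spread, and scores near 50.01 lie at the limit of listing.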
